A study of Homo sapiens with 8 samples.

Results

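The regions described here were called for TEAD4 in DMSO-treated human embryonic stem cells. The same regions were also called for SMAD2 in DMSO cells and for TEAD4 in SB431542 cells. They were chosen by the calls themselves: a region had to stand after row 1000 of the TEAD4 DMSO list and to overlap by at least 1 bp both a SMAD2 DMSO region and a TEAD4 SB431542 region. This gave 1411 regions, named triple-called regions below, of the 288380 TEAD4 DMSO regions after row 1000 and the 289380 in all. The count and the presence in 3 lists are therefore what the rule selected and not a finding.

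The calls come from chromatin immunoprecipitation with sequencing (ChIP-seq) of WA09 cells. WA09 is an established line of human embryonic stem cells, kept here on Matrigel in conditioned DMEM/F12 medium containing KO serum. Region lists of 3 groups were used, each from 1 library: TEAD4 (aviva antibody) in cells kept for 4 h in 10 µM SB431542, SMAD2 (Cell Signaling antibody) in cells kept for 4 h in DMSO, and TEAD4 in cells kept for 4 h in DMSO. All groups share the line, the medium and formaldehyde fixation, and no genetic change is named in the labels. Of the 8 labelled samples, the remaining 5 (SMAD2 in SB431542 cells, and input DNA and rabbit IgG for each treatment) were not analysed here.

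TEAD4 is a TEA-domain transcription factor that binds DNA and recruits the co-activators YAP and TAZ, the effectors of the Hippo pathway. SMAD2 is phosphorylated by the type I receptors for Nodal, activin and TGF-β, joins SMAD4 and acts on chromatin together with DNA-binding partners. SB431542 inhibits these receptors, and activin and Nodal signalling is known to sustain the undifferentiated state of human embryonic stem cells. The 3 lists together ask at which TEAD4 regions SMAD2 was called as well, and at which of these TEAD4 was called again with the receptors inhibited.

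The TEAD4 SB431542 list held 262109 regions, the SMAD2 DMSO list 420548 and the TEAD4 DMSO list 289380. The median width was 145 bp for TEAD4 in SB431542, 149 bp for SMAD2 in DMSO and 199 bp for TEAD4 in DMSO. All starts of the SMAD2 DMSO and TEAD4 DMSO lists lay on a 50 bp grid, against 1.97% of the starts of the TEAD4 SB431542 list, so that treatment and the way a list was made cannot be told apart. The lists give positions only, on the hg19 build, with no height, score or read count; depth is unknown, and a region missing from a list was not called there at an unstated threshold. Row numbers are places in the deposited lists, and no header says what orders the rows. With 1 library per group no replicate error exists and no p-value is given; the 95% intervals below cover counting error only and treat regions as independent. Gene names and sequences of the regions were not analysed here, because the annotation at hand is on another build.

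Most TEAD4 DMSO regions after row 1000 had no partner in either list. Of the TEAD4 DMSO regions after row 1000, 5.47% overlapped a TEAD4 SB431542 region, 7.65% a SMAD2 DMSO region and 0.489% both (95% Wilson interval 0.464 to 0.515%). A further 14360 regions had an SB431542 partner alone, 20652 a SMAD2 partner alone and 251957 neither. These shares are what the rule counted, and nothing is read from them. Of the 1411 triple-called regions, 1362 had 1 partner in each list, 34 had 2 or more SB431542 partners (at most 3) and 15 had 2 SMAD2 partners.

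The best-placed triple-called regions show how the 3 calls lie on one another. The smallest sum of rows belonged to a region on chromosome 17. There TEAD4 in SB431542 cells was called at 76361776 to 76362081 (row 1999), SMAD2 at 76361901 to 76362099 (row 3280) and TEAD4 in DMSO cells at 76361851 to 76362149 (row 1085). The SMAD2 region lay wholly inside the TEAD4 DMSO region, and 181 bp were common to all 3 calls.

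On chromosome 16, TEAD4 in SB431542 cells was called at 21712649 to 21713004 (row 2789), SMAD2 at 21712351 to 21712799 (row 1796) and TEAD4 in DMSO cells at 21712701 to 21712999 (row 3551). Here the 2 TEAD4 calls nearly coincided and the SMAD2 call, 449 bp wide, reached out to one side, leaving 99 bp in common. Another region, on chromosome 3, was the widest of all triple-called regions, with the TEAD4 DMSO call running over 1049 bp from 140228401 to 140229449 (row 5545). Within it lay 2 separate TEAD4 SB431542 calls, at 140228491 to 140228688 (row 3381) and 140229232 to 140229429 (row 31257), and the SMAD2 call at 140228501 to 140228799 (row 5130) met the first of them over 188 bp. These 3 regions were the only triple-called regions that stood in the first 2% of the rows of every list. In the first 5% of every list there were 6, and in the first 10% there were 16. These counts were not set against an expected number and are a description.

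Not all of the best-placed regions had their calls at one spot. On chromosome 2 the TEAD4 SB431542 call at 73178479 to 73178703 (row 6702) and the SMAD2 call at 73178751 to 73178949 (row 2195) took different parts of the TEAD4 DMSO call at 73178401 to 73178899 (row 1861) and stood 47 bp apart. On chromosome 20 the TEAD4 SB431542 call at 35012801 to 35012998 (row 7212) and the SMAD2 call at 35012401 to 35012599 (row 9226) lay at opposite ends of the TEAD4 DMSO call at 35012451 to 35012899 (row 3993), 201 bp apart. In both, the TEAD4 DMSO call bridged calls that did not touch.

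**Figure D1:**
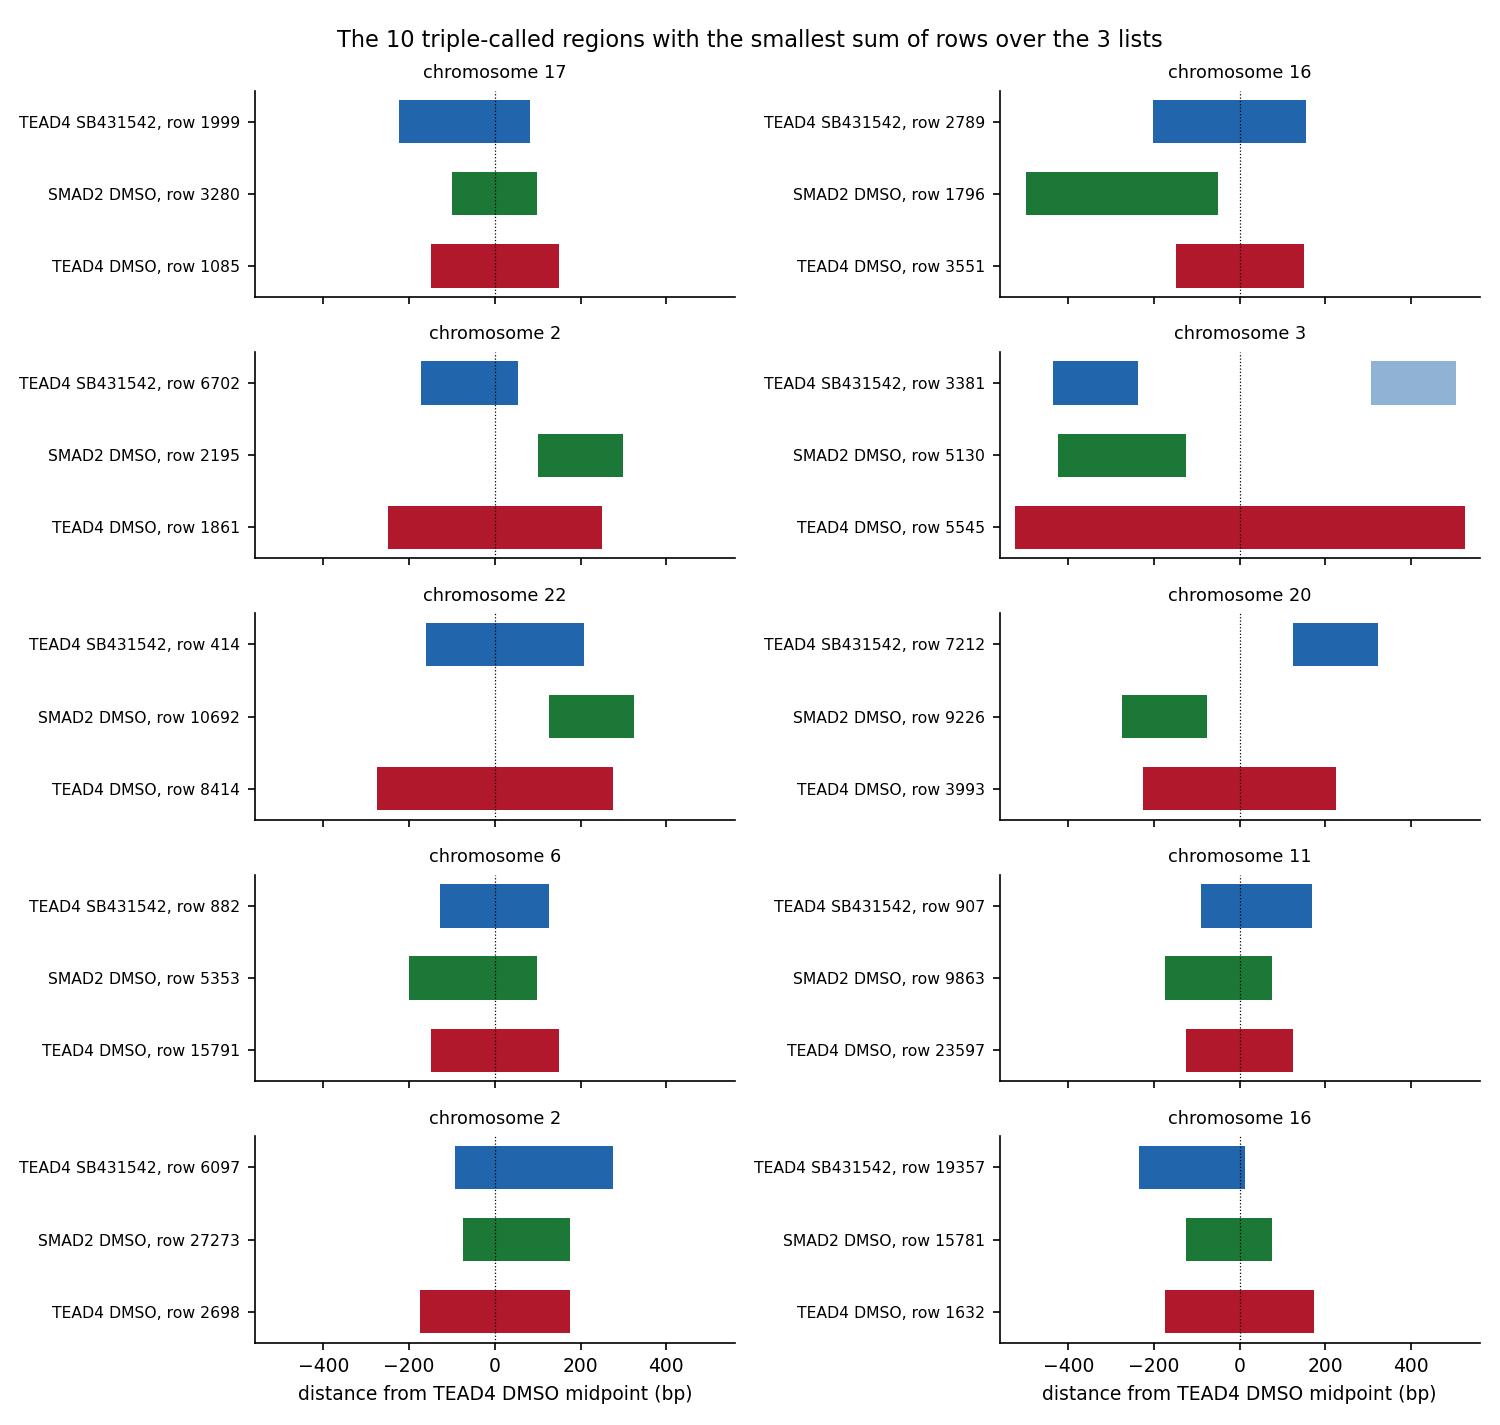
Positions of the calls at the 10 triple-called regions with the smallest sum of rows; the x axis is the distance in bp from the midpoint of the TEAD4 DMSO region, and each bar is 1 called region of TEAD4 in SB431542 cells (blue), SMAD2 in DMSO cells (green) or TEAD4 in DMSO cells (red). The pale bar on chromosome 3 is the other SB431542 partner, and in 8 of the 10 panels, all but those with gaps of 47 and 201 bp, the 3 calls have a stretch in common.

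The other 5 of these 10 all had a common stretch. On chromosome 22 the TEAD4 SB431542 call at 18878365 to 18878733 had row 414, the SMAD2 call at 18878651 to 18878849 row 10692 and the TEAD4 DMSO call at 18878251 to 18878799 row 8414, with 83 bp in common. On chromosome 6 a region with row 882 in SB431542 cells (13422923 to 13423175), row 5353 for SMAD2 (13422851 to 13423149) and row 15791 for TEAD4 in DMSO cells (13422901 to 13423199) had 227 bp in common. On chromosome 11 the rows were 907 in SB431542 cells (15574085 to 15574343), 9863 for SMAD2 (15574001 to 15574249) and 23597 for TEAD4 in DMSO cells (15574051 to 15574299), with 165 bp in common. These 3 regions stood far higher in the SB431542 list than in the DMSO list. A higher row in a list that was made differently is not a measured rise in binding.

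The remaining regions of the 10 were on chromosomes 2 and 16. On chromosome 2 the calls were at 173245482 to 173245851 for TEAD4 in SB431542 cells (row 6097), 173245501 to 173245749 for SMAD2 (row 27273) and 173245401 to 173245749 for TEAD4 in DMSO cells (row 2698). On chromosome 16 they were at 82366741 to 82366986 for TEAD4 in SB431542 cells (row 19357), 82366851 to 82367049 for SMAD2 (row 15781) and 82366801 to 82367149 for TEAD4 in DMSO cells (row 1632). The common stretch was 249 bp on chromosome 2 and 136 bp on chromosome 16, and on chromosome 2 it was the whole of the SMAD2 call.

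The longest stretch common to all 3 lists measured 330 bp and lay on chromosome 8. TEAD4 in SB431542 cells was called there at 128867320 to 128867733 (row 1755), SMAD2 at 128867301 to 128867649 (row 17429) and TEAD4 in DMSO cells at 128867101 to 128867799 (row 24139). Next after the chromosome 2 region with 249 bp came one on chromosome 11 with 241 bp, where the TEAD4 DMSO call was at 69251801 to 69252199 (row 5332), followed by one on chromosome 6 with 228 bp, at 49858601 to 49859099 (row 1048). The chromosome 11 region had row 6159 in the SB431542 list and row 99130 in the SMAD2 list, and the chromosome 6 region had row 45309 in the SB431542 list and row 318389 in the SMAD2 list. A long common stretch thus did not require a high place for SMAD2.

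The regions that opened the range, by row in the TEAD4 DMSO list, had partners at very different places. The first, at row 1015 on chromosome 10 (32521401 to 32521699), had an SB431542 partner at row 11565 and a SMAD2 partner at row 25230. The next, at row 1034 on chromosome 2 (50231751 to 50232149), had an SB431542 partner at row 46499 and a SMAD2 partner at row 307595, and the one after it, at row 1045 on chromosome 10 (132847351 to 132847699), had an SB431542 partner at row 112333 and a SMAD2 partner at row 60920. In the last of these the SMAD2 call had exactly the bounds of the TEAD4 DMSO call. The 3 regions just before the limit of row 1000 that met both overlaps were at row 905 on chromosome 5 (169779951 to 169780249, SB431542 partner at row 98116 and SMAD2 partner at row 81191), row 929 on chromosome 14 (56072601 to 56072899, SB431542 row 49840 and SMAD2 row 32137) and row 999 on chromosome 2 (127965651 to 127966299, SB431542 row 1373 and SMAD2 row 4412). Partner rows just inside and just outside the limit thus spanned overlapping ranges.

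Of the first 10 triple-called regions by row, the others were on chromosomes 6 (row 1048) and 17 (row 1085), given above, and on chromosomes 11, 4, 1, X and 3. The region at row 1094 on chromosome 11 (106159601 to 106159899) had its SB431542 and SMAD2 partners 105 bp apart, and that at row 1197 on chromosome X (39551851 to 39552449) had them 174 bp apart. At row 1154 on chromosome 4 (108827601 to 108827999) the SB431542 partner stood at row 2464 and the SMAD2 partner at row 102775, with 98 bp in common. At row 1192 on chromosome 1 (17760451 to 17760849) only 5 bp were in common, and at row 1211 on chromosome 3 (185815601 to 185815949) 35 bp were.

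The triple-called share was larger among wide regions and among regions near the head of the list. A wider region overlaps partners more often, so width is tied to the rule. The share by row was not computed at equal width, so the shares by width and by row are a description. Triple-called regions were 249 bp wide at the median, with quartiles at 199 and 349 bp (n = 1411), against 199 bp for the regions with an SB431542 partner alone, with a SMAD2 partner alone and with no partner. The share of regions that were triple-called was 0.108% (0.0793 to 0.147%) at widths of 99 to 148 bp, 0.597% (0.533 to 0.667%) at 249 to 298 bp and 3.15% (2.62 to 3.78%) at 499 bp and above. Along the rows it was 2.78% (2.31 to 3.33%) in rows 1001 to 5000, 1.18% in rows 5001 to 20000, 0.733% in rows 20001 to 50000, 0.55% in rows 50001 to 100000, 0.416% in rows 100001 to 200000 and 0.237% (0.207 to 0.271%) after row 200000. In rows 1 to 1000, which the rule leaves out, it was 8.2% (82 of 1000 regions). In number, triple-called regions reached far down the list: their median row was 83457, and 628 of them stood after row 100000.

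**Figure D2:**
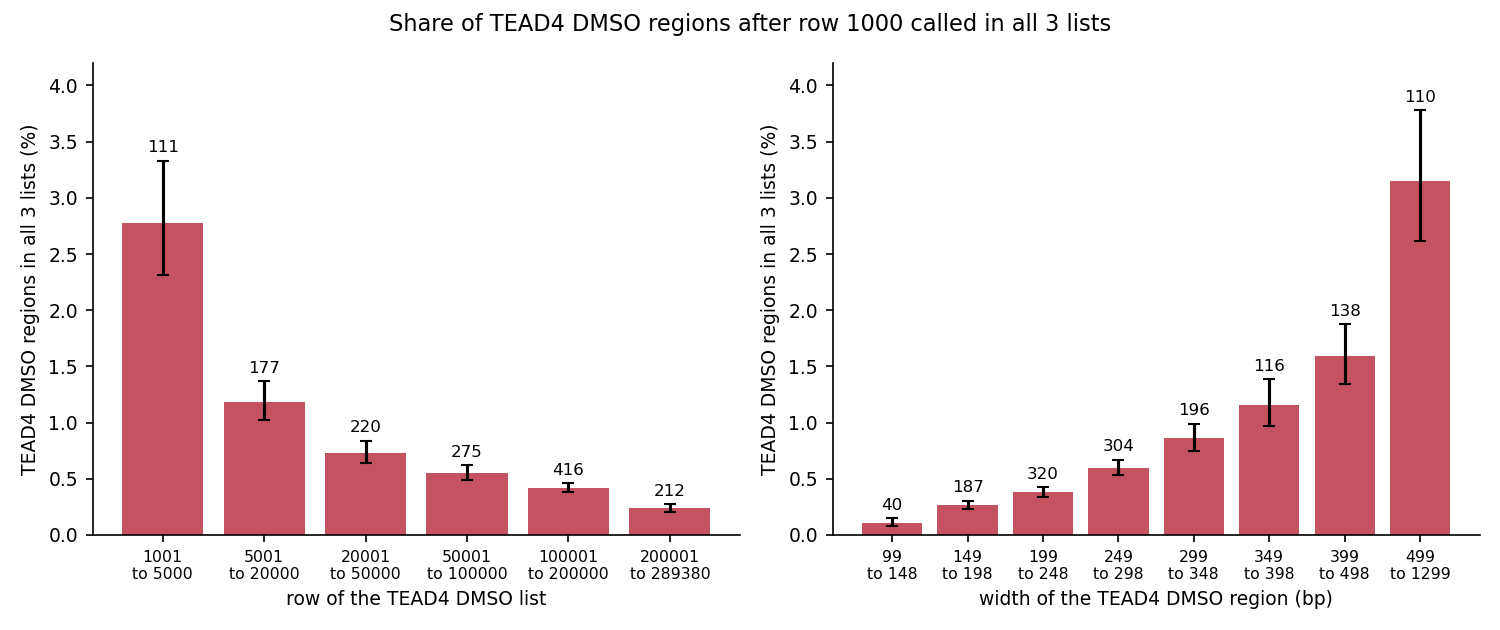
Share of TEAD4 DMSO regions after row 1000 that were called in all 3 lists (y axis, %), by row of the TEAD4 DMSO list (left) and by width in bp (right); bars are shares, error bars 95% Wilson intervals and numbers the triple-called regions in each bin. The share falls to 0.237% after row 200000 and reaches 3.15% in the widest bin. Width is tied to the rule, since a wider region overlaps partners more often.

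Whether a SMAD2 partner went with being called again under SB431542 was read from these counts as a description, since the rule uses both calls. Of the TEAD4 DMSO regions after row 1000 with a SMAD2 partner, 6.40% (6.08 to 6.73%, n = 22063) also had an SB431542 partner, and of those without one, 5.39% (5.31 to 5.48%, n = 266317) did. The difference was 1.00 percentage points (0.68 to 1.34). At equal width it was 0.153 points, with an interval of -0.184 to 0.491 that includes 0. Within width classes the order went both ways: 5.02% with and 4.72% without SMAD2 at 199 to 248 bp, 6.53% with and 6.26% without at 249 to 298 bp, but 9.72% with and 10.0% without at 349 to 398 bp and 2.53% with and 3.09% without at 99 to 148 bp. At equal width the difference was 2.02 points (-2.06 to 6.09) in rows 1001 to 5000, 0.814 points (-0.910 to 2.54) in rows 5001 to 20000 and 0.0431 points (-0.290 to 0.376) after row 20000. Each of these intervals includes 0.

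Under the rule both partners touch the same TEAD4 DMSO region, so the widths of the calls limit how far apart they can lie. Median widths were 249 bp for triple-called regions, 159 bp for their SB431542 partners and 149 bp for their SMAD2 partners. How often partners of these widths would meet anyway was not computed, so the share below is a description. The rule did not ask whether the SB431542 and SMAD2 calls also met each other. In 1040 of the 1411 triple-called regions (73.7%, 71.3 to 75.9%) they did, and all 3 calls then had a stretch in common, with a median length of 66 bp (interquartile range 40 to 99 bp). In the other 371 the partners stood apart, by a median of 58 bp and at most 345 bp. In the triple-called regions of rows 1 to 1000 the share was 79.3% (69.3 to 86.6%, 65 of 82), and the median common stretch was 99 bp. The difference in share was -5.56 points, with an interval of -13.3 to 4.67 that includes 0.

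A narrow TEAD4 DMSO region leaves its partners less room to stand apart, so the presence of a common stretch is tied to width. The share of triple-called regions with a common stretch was largest among narrow regions and smallest among the widest, though not in steady steps. It was present in 92.5% of the triple-called regions of 99 to 148 bp (37 of 40), 80.6% of those of 199 to 248 bp, 68.4% of those of 299 to 348 bp, 72.4% of those of 349 to 398 bp and 59.1% of those of 499 bp or more (65 of 110). Among the 5 widest, only the chromosome 3 region of 1049 bp described above had one. The other 4 were at 32484351 to 32485199 on chromosome 17 (row 2547), 65064201 to 65065049 on chromosome 15 (row 3156), 86326201 to 86326999 on chromosome 5 (row 66411) and 27769901 to 27770649 on chromosome 3 (row 12982). Their partners stood 65, 281, 33 and 15 bp apart. By rows, the share was 75.7% in rows 1001 to 5000, 69.5% in rows 5001 to 20000 and 81.1% after row 200000.

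Relative to the widths of the calls, the midpoints of the TEAD4 calls under SB431542 lay nearer to those of the DMSO calls at the head of the list than at its end; in bp the distance showed no such order after row 1000. For SMAD2 the intervals of the row classes overlapped. The distance between the midpoints of 2 overlapping regions was divided by the distance at which their edges would just meet, so that 0 is a shared midpoint and 1 a bare touch. For SB431542 partners of triple-called regions the median was 0.255 (0.213 to 0.354, 121 pairs) in rows 1001 to 5000, 0.327 in rows 5001 to 20000, 0.377 in rows 20001 to 50000, 0.428 in rows 50001 to 100000, 0.460 in rows 100001 to 200000 and 0.476 (0.399 to 0.527, 213 pairs) after row 200000. In the triple-called regions of rows 1 to 1000 it was 0.133 (0.0843 to 0.163, 85 pairs). In bp the median distance lay between 76.8 and 89 bp in every row class after row 1000, and was 42 bp in rows 1 to 1000.

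The same climb was present in regions that SMAD2 did not share. Regions with an SB431542 partner alone had medians of 0.245 (0.221 to 0.280) in rows 1001 to 5000 and 0.451 (0.431 to 0.473) after row 200000, and over all rows after 1000 the medians were 0.410 (0.382 to 0.433) for triple-called regions and 0.411 (0.403 to 0.419) for those with an SB431542 partner alone. For SMAD2 partners of triple-called regions the median was 0.335 (0.274 to 0.429) in rows 1001 to 5000 and 0.431 (0.336 to 0.503) after row 200000, with 0.386 (0.274 to 0.468) in rows 1 to 1000. The intervals of all row classes overlapped one another. The shared 50 bp grid allows only certain distances between SMAD2 and TEAD4 DMSO midpoints, so these medians are not set against those for SB431542.

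**Figure D3:**
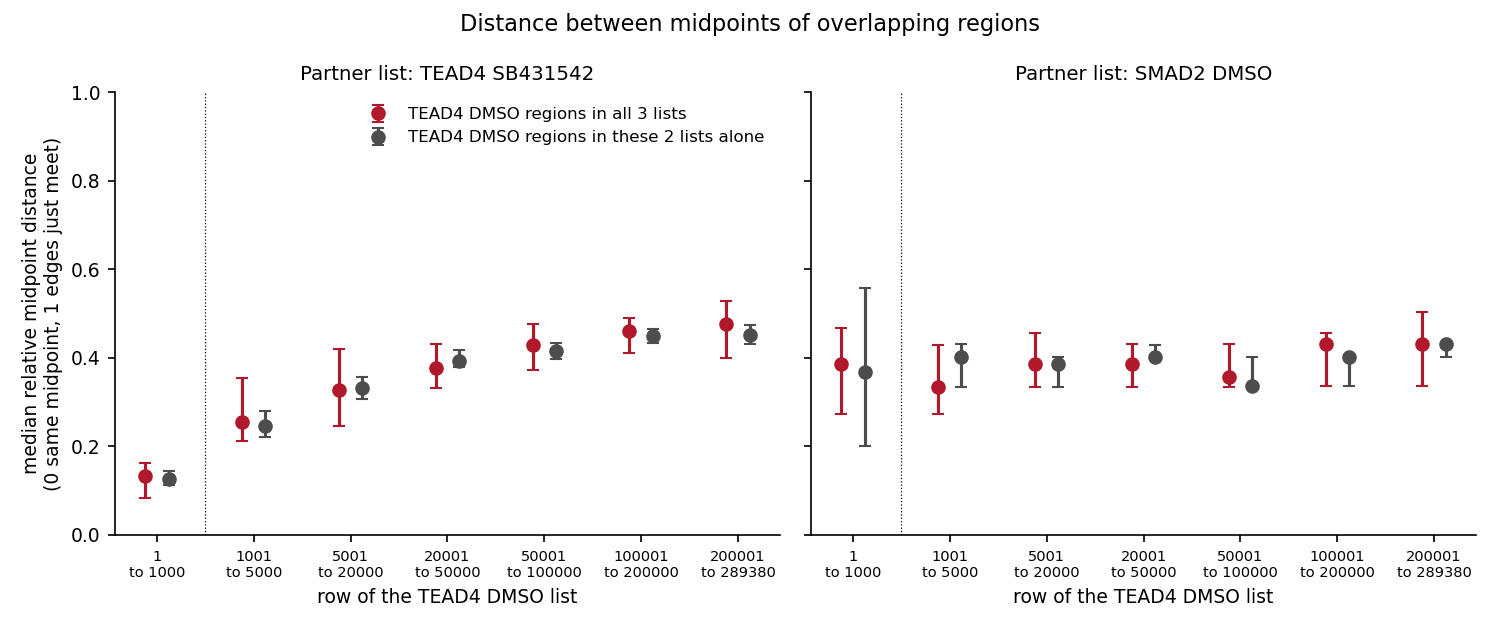
Median relative distance between the midpoints of overlapping regions (y axis, 0 for a shared midpoint and 1 for edges that just meet) by row of the TEAD4 DMSO list, for SB431542 partners (left) and SMAD2 partners (right); red points are triple-called regions, grey points regions with that partner alone, and bars are 95% order-statistic intervals. The dotted line marks row 1000; on the left the medians climb to 0.476, on the right they stay between 0.335 and 0.431 for triple-called regions.

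The partners of triple-called regions stood at places in their own lists like those of partners of the other overlapping regions. The median SB431542 partner row was 108523, at 41.4% of that list (range 317 to 261450), against 40.5% for partners of regions without SMAD2. The median SMAD2 partner row was 186114, at 44.3% of that list (range 407 to 419278), against 44.7% for partners of regions without an SB431542 call. Of the triple-called regions, 279 had an SB431542 partner in the first 10% of its list, 199 a SMAD2 partner in the first 10%, and 43 both. Matching counts were not taken for the other overlapping regions, so those given are a description.

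Across the 1411 triple-called regions, Spearman's rho between the rows in the SB431542 and DMSO lists of TEAD4 was 0.139. It was 0.0014 between the SMAD2 and TEAD4 DMSO rows and 0.0075 between the SB431542 and SMAD2 rows. These values describe regions, which share libraries and are not replicates, and a rho of this size is weak. A triple-called region that stood high for one factor could stand anywhere in the list of the other.

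**Figure D4:**
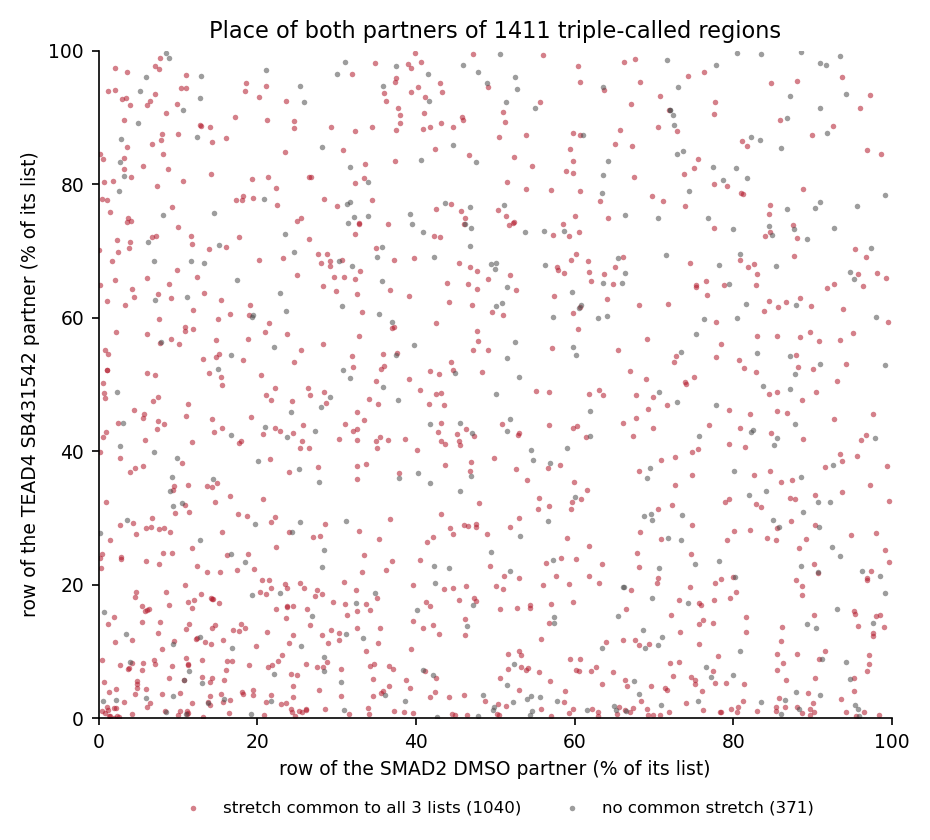
Place of the SMAD2 partner (x axis, row as % of the SMAD2 DMSO list) and of the SB431542 partner (y axis, row as % of the TEAD4 SB431542 list) for each of the 1411 triple-called regions; red points have a stretch common to all 3 lists (1040), grey points have none (371). Points fill the whole square, somewhat more densely at low rows of the SB431542 list.

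The surroundings of triple-called regions and of regions with an SB431542 partner alone held more TEAD4 SB431542 regions on average than those of regions with no partner, while the means for SMAD2 and TEAD4 DMSO regions lay close together. Within 10 kb of the midpoint, partners not counted, there were 2.26 ± 2.34 (SD, n = 1411 regions) SB431542 regions around triple-called regions and 1.83 ± 1.46 around regions with no partner, a difference of 0.43 (0.31 to 0.55). Regions with an SB431542 partner alone had 2.37 ± 3.01, and those with a SMAD2 partner alone 1.88 ± 1.46. SMAD2 regions numbered 3.03 ± 1.72 around triple-called regions and 3.07 ± 1.75 around regions with no partner. TEAD4 DMSO regions numbered 2.44 ± 1.78 around triple-called regions and 2.46 ± 1.74 around regions with no partner. A denser list offers more partners, so the SB431542 value is tied to the rule.

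A few triple-called regions lay in dense patches of the SB431542 list. At least 10 further SB431542 regions lay within 10 kb of 16 triple-called regions (1.13%, 0.699 to 1.83%), against 176 of 251957 regions with no partner (0.0699%) and 261 of 14360 with an SB431542 partner alone (1.82%). Of those 16, 7 were less than 500 kb away from an empty stretch, meaning 1 Mb or more in which none of the lists has a region. The same held for 140 of the 261 with an SB431542 partner alone. It held for 36 of the 176 with no partner and 4 of 15 such regions with a SMAD2 partner alone. In all, 19 triple-called regions (1.35%) lay beside such a stretch, against 291 of the regions with an SB431542 partner alone (2.03%) and 0.694% of all TEAD4 DMSO regions after row 1000. With regions beside these stretches left out, the SB431542 neighbours numbered 2.16 around triple-called regions, 2.16 around regions with an SB431542 partner alone and 1.83 around regions with no partner. The median was 2 in every class, with or without these regions.

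Triple-called regions were scattered along the chromosomes. Another lay within 50 kb of 85 of them (6.02%, 4.90 to 7.39%), against 6.40% (6.01 to 6.81%) of the regions with an SB431542 partner alone, 5.35% (5.05 to 5.67%) of those with a SMAD2 partner alone and 5.02% (4.93 to 5.11%) of those with no partner that had a triple-called region within that distance. The 85 formed 41 pairs and 1 run of 3, on chromosome 20 from 35185001 to 35222349. Its regions were at 35185001 to 35185249 (row 111782, with partners at row 8962 for SB431542 and row 145678 for SMAD2), 35198001 to 35198399 (row 3482, partners at row 208235 for SB431542 and row 94023 for SMAD2) and 35222051 to 35222349 (row 21551, partners at row 106808 for SB431542 and row 11269 for SMAD2). The first had 115 bp in common to all lists, the second 7 bp, and the third had partners 15 bp apart. The region at row 3993 with its partners at opposite ends, described above, also lay on chromosome 20, before this run.

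With chromosome Y left out, the triple-called share of TEAD4 DMSO regions after row 1000 was highest on chromosome 17 (0.711%, 0.540 to 0.936%, 50 regions). It was lowest on chromosome X (0.323%, 0.245 to 0.424%, 51 regions). These intervals do not overlap, though they are not adjusted for the 23 chromosomes compared. The intervals of chromosomes 16 (0.656%), 9 (0.628%) and 11 (0.612%) also lay above the share of 0.489% over all chromosomes. Both component shares were low on chromosome X, 4.73% with an SB431542 partner and 5.73% with a SMAD2 partner, against 6.21% with an SB431542 partner and 8.28% with a SMAD2 partner on chromosome 17. Among the regions with a SMAD2 partner, 8.59% (6.58 to 11.1%) were called again under SB431542 on chromosome 17 and 5.63% (4.31 to 7.33%) on chromosome X, with intervals that overlap. Chromosome Y, with 2 triple-called of 109 regions (1.83%, 0.505 to 6.44%), was left out of this comparison. Of its 109 regions, 44.0% overlapped an SB431542 region. Whether calls on chromosome Y reflect binding there was not tested.

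**Figure D5:**
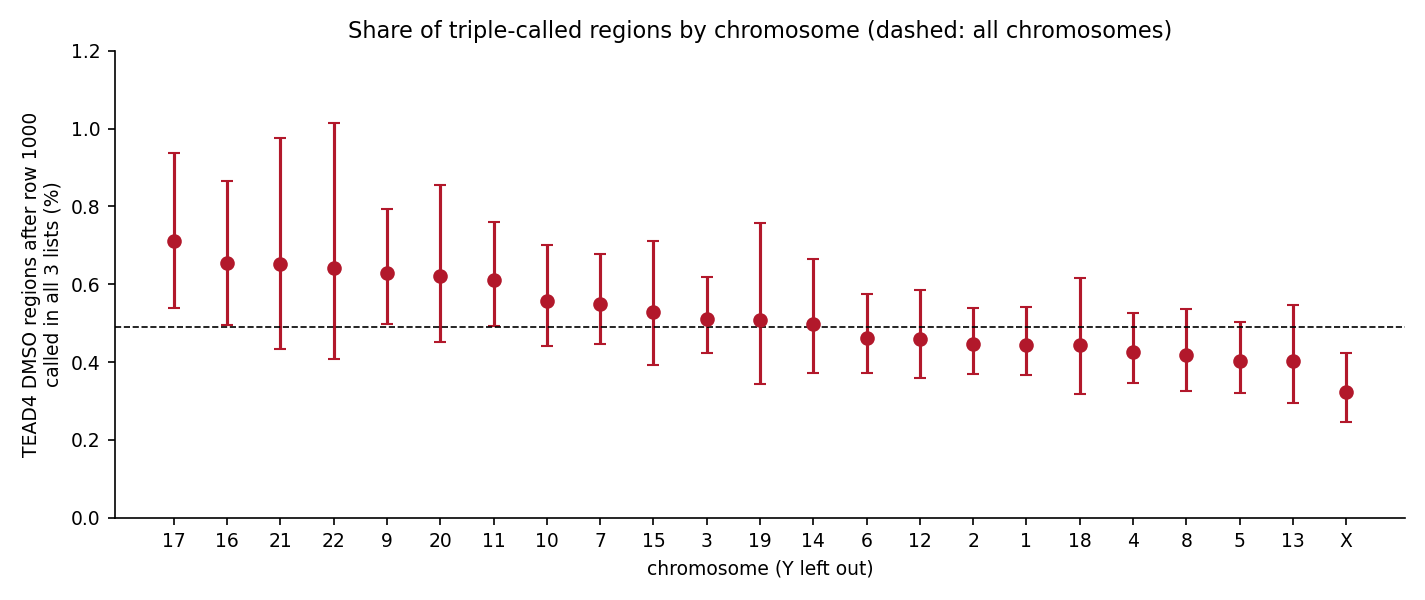
Share of TEAD4 DMSO regions after row 1000 called in all 3 lists (y axis, %) for each chromosome but Y, in falling order; points are shares, bars 95% Wilson intervals, and the dashed line is the share over all chromosomes, 0.489%. Chromosome 17 (0.711%) and chromosome X (0.323%) lie at the ends.

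A stricter match left a small core. When each TEAD4 DMSO region and its partner had to overlap by 50% of both, 161 triple-called regions remained, and in 110 of them the SB431542 and SMAD2 calls met this rule with each other as well. With midpoints within 100 bp of each other in place of an overlap, 590 regions qualified, of which 585 were among the 1411. In 441 of the 590 an SB431542 and a SMAD2 midpoint were as close to each other. Of the 28 regions named above, 7 met the rule of 50% of both and 11 the midpoint rule.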

How the data were processed

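The authors deposited 1 list of called regions for each of 3 groups, with 3 columns and no header: chromosome, start and end. Per the submitters' processing notes the genome build was hg19. For the aligner, caller, threshold, control library and depth, nothing is stated in the sources used here. Each list was tied to the single sample title that fits its antibody target and treatment. Starts were raised by 1 bp for printing, and widths are end minus start. Overlaps were counted with Python 3.11.15, NumPy 2.4.6, pandas 2.3.3 and SciPy 1.17.1, and figures drawn with matplotlib 3.10.9. The overlap functions were tested on simulated data with planted partners. Shares carry Wilson intervals, differences of shares not taken at equal width Newcombe intervals, and medians order-statistic intervals. The difference at equal width was averaged over single widths, weighted by the regions with SMAD2. Its intervals, and those of the difference in SB431542 neighbours, are normal intervals from the standard error. The regions named are the 10 with the lowest TEAD4 DMSO row, the 10 with the smallest sum of rows, the 5 with the longest common stretch, the 5 widest (ties by row), runs of 3 or more within 50 kb, and the 3 on each side of row 1000. The regions, lists and measures were chosen with earlier results of these data known. Lists of regions carry no expression values, so that markers of the cell type could not be checked.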

Additional observations from a re-analysis of the deposited data

How the results depend on the processing

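Alternatives that tightened the match or shortened the partner lists changed the values. A larger minimum overlap or shorter lists lower the count by construction, since fewer partners qualify, while the midpoint rule also admits regions outside the 1411. The share with another within 50 kb is tied to the count as well, since fewer regions leave fewer possible neighbours. The cause of the other shifts was not tested. With 50% of both regions required, 161 regions were triple-called (0.0558% of those after row 1000). In 68.3% of them the SB431542 and SMAD2 calls also overlapped each other by 50% of both. That is a stricter measure than a common stretch and is not set against the main share. Of the 161, 0 had another within 50 kb (Wilson interval up to 2.33%). The median width was 199 bp and the median relative SB431542 distance 0.199. The SB431542 share with minus without SMAD2 was then 0.108 points and the excess of SB431542 neighbours 0.371, both with intervals that include 0. With midpoints within 100 bp the values were 590 regions (0.205%), 2.71% with another within 50 kb, a width of 199 bp, a distance of 0.235 and 0.240 points, whose interval includes 0. With the first 50% of partner rows they were 464 regions (0.161%), 79.5% with a common stretch, 3.02% with another within 50 kb, a distance of 0.380 and an SB431542 share with minus without SMAD2 of 0.589 points. With the first 10% they were 43 regions (0.0149%), 86.0% with a common stretch and 0 with another within 50 kb (Wilson interval up to 8.20%). The width was then 299 bp, the distance 0.302 and the SB431542 share with minus without SMAD2 0.469 points. The triple-called share was 0.448% without the widest 1% of regions and 0.457% after row 5000, and the median width was 250 bp with ends read as inclusive. At equal width, a setting added after seeing the data, the SB431542 share with minus without SMAD2 was 0.153 points. No result changed direction under the settings run. Alternatives that needed a score, sequence or annotation were not run. No paired analysis was possible because there was a single library in every group, and no library could be left out.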
